A study of Schmidtea mediterranea with 64 samples.

Results

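The data described here were transcript levels in X1 cells of the planarian *Schmidtea mediterranea* after 9 days of *mll1/2*(RNAi), set against *unc22*(RNAi) of the same day. They comprised 8 of the 64 libraries of the series, 4 from *mll1/2*(RNAi) animals (replicates 1 to 4) and 4 from *unc22*(RNAi) animals (replicates 1 to 4). Worms ingested calf liver paste containing bacteria that make double-stranded RNA, so both groups received feedings and differed in the gene targeted. *unc22* is a control RNAi that targets no planarian gene. Of the 21868 transcript IDs listed in the table that holds these libraries, 12525 had a mean of at least 1 RPKM (reads per kilobase of transcript length and per mega reads mapped) over its 16 libraries, and these were the transcripts tested. The remaining 9343 IDs were not tested. The values nearest the threshold were a mean of 1.0004 RPKM among those tested and 0.9997 RPKM among those left out.

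MLL1/2 and Set1 belong to the COMPASS family of enzymes, which methylate lysine 4 of histone H3. The trimethylated form of this mark lies at the promoters of transcribed genes, and MLL proteins are best known from flies and mammals for keeping developmental genes active. X1 cells are the fraction of planarian cells with more than the resting DNA content, as sorted after Hoechst staining, and consist mostly of cycling neoblasts, the stem cells from which all planarian tissues are renewed. The comparison asks which transcripts of this stem cell fraction depend on *mll1/2* at the earlier of the 2 days sampled.

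The files of the series do not pair the transcript IDs with gene names, and descriptions of such IDs from another study were not used. For that reason the knockdown of *mll1/2* itself was not checked, the X1 fraction was not checked against stem cell markers, no pathway was examined, and transcripts are named only by ID, at most 2 in each direction. RNA came from a sorted cell population, so fewer cells of a type and less RNA per cell cannot be told apart. The labels do not say which animals or sorts the libraries came from, and the p-values measure the spread between these libraries only.

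Depth differed little between the groups. The *mll1/2*(RNAi) libraries held 9.50 to 12.8 M (mega) reads and the *unc22*(RNAi) libraries 11.2 to 13.2 M. Pearson's r of log2 values across transcripts was 0.979 to 0.987 between pairs of control libraries, 0.975 to 0.985 between pairs of knockdown libraries and 0.968 to 0.978 between libraries of different groups. The first principal component of the 8 libraries held 32.4% of the variance and placed the knockdown libraries between -30.7 and -14.9 and the controls between 18.1 and 25.8. Among the day 12 libraries of the same table, which share the estimate of spread and are used below, *unc22*(RNAi) replicates 2, 3 and 4 stood apart. They lay at 49.5, 74.9 and 52.6 on the first component of all 16 libraries, whereas the other 13, including *unc22*(RNAi) replicate 1 of that day at -19.0, lay between -26.0 and 12.9.

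At day 9 most of the transcripts that changed in *mll1/2*(RNAi) X1 cells fell. limma called 503 of the 12525 transcripts at a Benjamini-Hochberg adjusted p below 0.05, which is 4.02% of those tested. Of these, 420 (3.35%) were lower than in *unc22*(RNAi) and 83 (0.663%) were higher. The median log2 fold change was -1.12 among the transcripts that fell, with a range from -3.47 to -0.40, and 0.78 among those that rose, with a range from 0.35 to 2.25, while over all transcripts tested it was 0.04. The fit took in the 16 X1 libraries of both days. With the 8 day 9 libraries alone it called 430 transcripts lower and 106 higher, of which 381 and 64 were among the 420 and 83. Without *unc22*(RNAi) replicate 2 of day 9 the count was 316, of which 278 were lower.

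The balance of falls and rises depended on the libraries. With the libraries weighted, 658 transcripts were called lower and 559 higher. The number called higher was 33 and 35 without day 9 *mll1/2*(RNAi) replicates 1 and 3, and 39, 38 and 40 without day 9 *unc22*(RNAi) replicates 1, 2 and 4. It was 188 without day 12 *unc22*(RNAi) replicate 1 and 196 without replicates 2, 3 and 4 of that group. In each of these fits falls outnumbered rises.

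**Figure D1:**
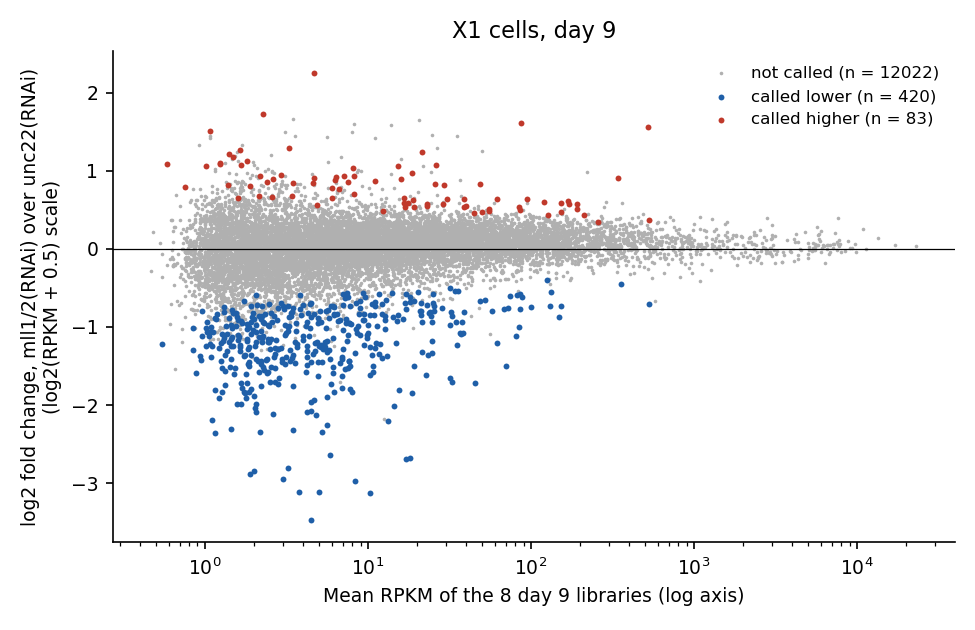
Each point is 1 of the 12525 transcripts tested, with its mean RPKM over the 8 day 9 libraries on a log axis and its log2 fold change, *mll1/2*(RNAi) over *unc22*(RNAi), on the vertical axis. Blue points (420) were called lower and red points (83) higher, and the blue points reach -3.47 while the red points reach 2.25.

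The plot of fold change by level shows that the falls were larger as well as more numerous. A change of at least 2-fold was seen in 268 of the called transcripts (2.14% of those tested), of which 249 were lower (1.99%) and 19 higher (0.152%). Among the 420 that fell, 15 changed by less than 1.5-fold, 156 by 1.5- to 2-fold, 222 by 2- to 4-fold, 23 by 4- to 8-fold and 4 by more than 8-fold. Among the 83 that rose, the same classes held 26, 38, 18, 1 and 0 transcripts. The 19 rises of at least 2-fold were 11 without *mll1/2*(RNAi) replicate 1, 12 without *unc22*(RNAi) replicate 1 or replicate 2 and 40 with the libraries weighted.

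The 4 libraries of each group seldom overlapped for these transcripts. Over all transcripts tested, the 2 groups did not overlap for 1349 (10.8%), with *mll1/2*(RNAi) lower for 761 (6.08%) and higher for 588 (4.69%). Without *mll1/2*(RNAi) replicate 2 that count was 2237, and without *unc22*(RNAi) replicate 3 it was 2606. Among the called transcripts the groups were apart for 409 of the 420 that fell and 75 of the 83 that rose. These values come from the same libraries as the calls and describe them only.

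The transcripts that fell kept a median of 39.8% of their control RPKM. The knockdown mean was below 50% of the control mean for 301 of the 420, below 25% for 68 and below 10% for 12. Together the 420 took 0.583 to 0.623% of the reads in each *unc22*(RNAi) library and 0.281 to 0.297% in each *mll1/2*(RNAi) library. Between 415 and 419 of them reached 1 RPKM in a control library, against 292 to 317 in a knockdown library.

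A subset crossed the level of 1 RPKM. The same 1 RPKM was the mean needed for the test. Transcripts below it in every day 9 knockdown library therefore reached that mean through other libraries. For 64 of the 420, every control library was at or above 1 RPKM and every knockdown library was below it, and over all transcripts tested there were 76 of this kind and 11 of the reverse kind. In 79 of the 420 no knockdown library held more than 10 reads, so the size of these falls is limited by counting. The knockdown libraries held 0 reads of 1 of them, which had 7 to 26 reads in each control library. Set against a floor of 3 reads over the group, it was at least 19.7-fold lower, and with this bound in place of its fitted value the median of the 420 was still -1.12.

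Detection was compared in 3 ways, and the groups were apart in 1 of them. Counting every listed ID, 12136 to 12331 transcripts reached 1 RPKM in the *mll1/2*(RNAi) libraries (mean 12229 ± 85.9, SD, n = 4) and 12374 to 12637 in the *unc22*(RNAi) libraries (12533 ± 119, SD, n = 4). Every knockdown library was below every control library (exact permutation test, two-sided, p = 0.0286, the smallest that 4 against 4 libraries can give). Over the 12525 tested transcripts alone, 11646 to 11789 reached 1 RPKM after the knockdown and 11773 to 12010 in the controls, so the groups overlapped. They also overlapped in the number of listed IDs at 0, which was 2266 to 2958 and 1907 to 2636. The read totals given above were also lower on average in the knockdown group, and their part in these counts was not tested.

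The largest fall with no overlap was that of SMED30025108, an ID of 617 bases. Its level was 10.1, 9.33, 8.93 and 6.15 RPKM in the 4 *unc22*(RNAi) libraries, from 51 to 69 reads each. It was 0.437, 0.356, 0.343 and 0.140 RPKM in the 4 *mll1/2*(RNAi) libraries, from 1 to 3 reads each. All knockdown libraries thus lay far below all controls, at the edge of detection. The means were 8.63 ± 1.73 and 0.319 ± 0.126 RPKM (SD, n = 4 each), and the log2 fold change was -3.47 (SE 0.34, limma adjusted p = 7.35e-06). With so few knockdown reads the size of this fall depended on the scale, and it was -4.42 with a pseudocount of 0.1, -2.85 with 1 and -4.50 with voom on recovered reads.

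SMED30029473, of 479 bases, had the next largest fall without overlap. Its control libraries stood at 21.2, 18.9, 19.1 and 15.8 RPKM, and its knockdown libraries at 3.19, 0.688, 1.99 and 1.63 RPKM, or 3 to 17 reads. The lowest control was well above the highest knockdown library, which was replicate 1. Its mean went from 18.7 ± 2.19 to 1.87 ± 1.03 RPKM (SD, n = 4 each), and the log2 change was -3.13 (SE 0.28, adjusted p = 2.93e-06 by limma).

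The 20 largest falls with no overlap, these included, had log2 fold changes from -3.47 to -2.19. Their control means lay between 2.14 and 31.5 RPKM and their knockdown means between 0 and 4.62 RPKM. Their median length was 672 bases, against 1203 bases over all transcripts tested.

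The largest rise was that of SMED30005487, an ID of 442 bases. Its level was 0.819, 1.86, 1.56 and 1.01 RPKM in the control libraries, from 4 to 9 reads. It was 8.34, 5.72, 7.89 and 10.2 RPKM in the knockdown libraries, from 23 to 52 reads. The groups did not overlap, and the mean rose from 1.31 ± 0.482 to 8.04 ± 1.84 RPKM (SD, n = 4 each), that is, a log2 difference of 2.25 (SE 0.32, adjusted p = 0.000237 by limma).

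The next largest rise without overlap was in a transcript that was already abundant in control stem cells. SMED30030128, of 1544 bases, was at 38.2, 42.6, 51.0 and 40.1 RPKM in the controls, from 652 to 833 reads. It was at 139, 120, 138 and 130 RPKM in the knockdown libraries, from 1681 to 2396 reads. Every knockdown library was more than 2-fold above every control. The means were 43.0 ± 5.62 and 132 ± 8.97 RPKM (SD, n = 4 each), and it changed by 1.61 on the log2 scale (SE 0.11, adjusted p = 1.68e-07 by limma). Its SE was the smallest of the 4 named transcripts.

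**Figure D2:**
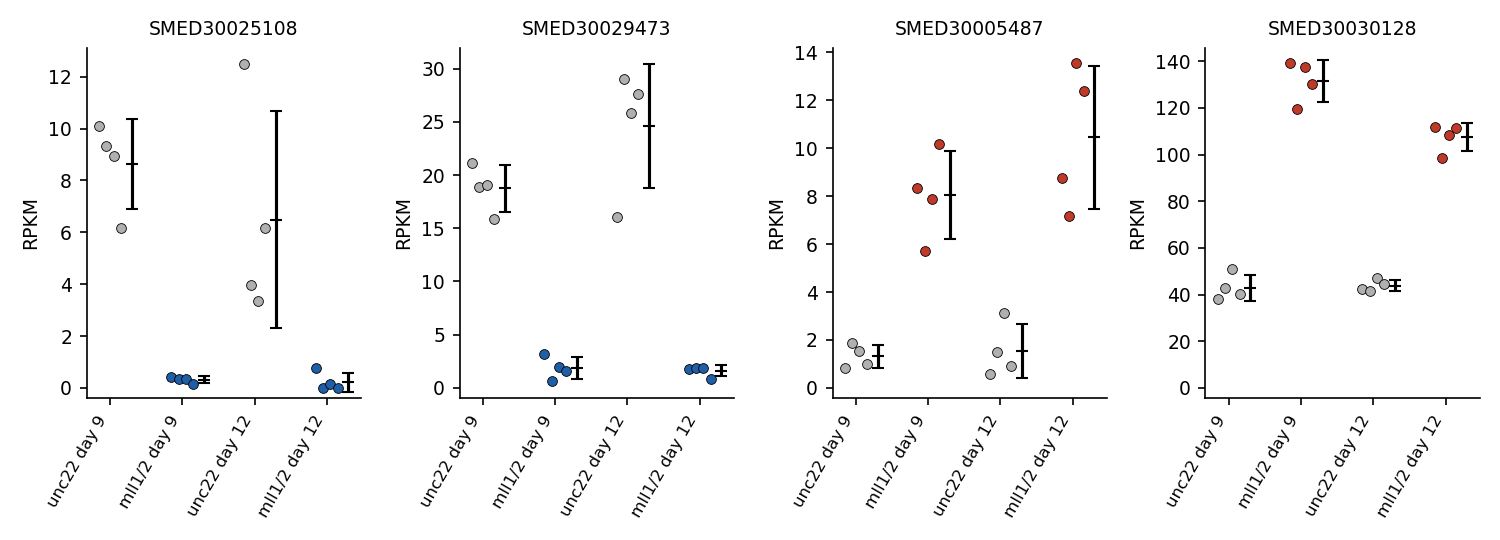
RPKM of the 4 named transcripts in each X1 library of the *mll1/2* experiment at days 9 and 12 (grey, *unc22*(RNAi); blue or red, *mll1/2*(RNAi)), with the mean and SD of each group of 4 beside the points. SMED30025108 and SMED30029473 were lower and SMED30005487 and SMED30030128 higher in every knockdown library than in every control library of the same day.

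The plot of the 4 named transcripts also gives their day 12 levels, which came from other libraries. SMED30025108 was at 0.224 ± 0.365 RPKM in *mll1/2*(RNAi) and 6.49 ± 4.17 in *unc22*(RNAi), with 2 of the 4 knockdown libraries at 0 and the control in replicate 1 (12.5 RPKM) far above the others. SMED30029473 was at 1.61 ± 0.499 against 24.6 ± 5.84 RPKM. SMED30005487 was at 10.5 ± 2.99 against 1.53 ± 1.13 RPKM, and SMED30030128 at 108 ± 6.17 against 43.9 ± 2.42 RPKM (SD, n = 4 in each group). All 4 were called at day 12 in the direction of day 9, and the largest of their adjusted p-values was 2.35e-05.

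Many of the transcripts that rose by at least 2-fold were scarce in control X1 cells. Of the 19, 10 had a control mean below 1 RPKM and 4 were at or above 10 RPKM. The 10 could reach the mean of 1 RPKM needed for the test only through other libraries than these controls. The control level also enters the fold change, so these values are a description. The median control level of the 19 was 0.971 RPKM and their median length 452 bases. Over all 83 that rose, the median control level was 10.99 RPKM, against 6.06 RPKM for the 420 that fell and 8.58 RPKM for all transcripts tested.

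Falls were concentrated among transcripts of low level. When the 12525 transcripts were divided into 10 classes by mean RPKM, 3.75% of the lowest class were called lower. The share was 5.75% in the second class (1.44 to 2.19 RPKM) and declined from there, class by class, to 0.559% in the highest (above 113 RPKM). Called rises made up 0.160 to 1.04% of each class with no such order. The median log2 fold change of all transcripts in a class went from -0.07 in the lowest to 0.08 in the highest, with its maximum of 0.11 in the ninth, so low transcripts as a whole also lay slightly lower. Groups that did not overlap were in the lower direction for 112 and the higher for 38 transcripts of the lowest class, and for 12 and 98 of the highest.

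**Figure D3:**
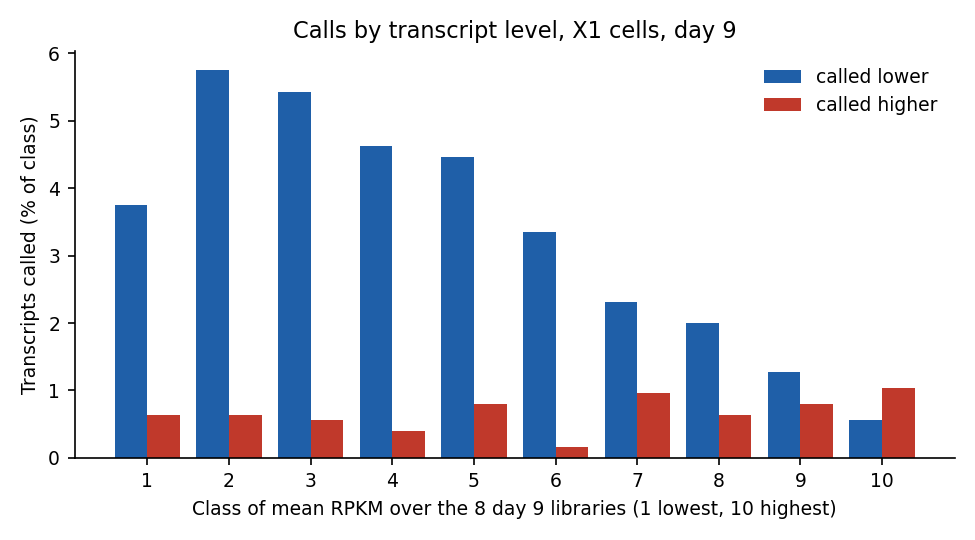
Percentage of transcripts called lower (blue) and higher (red) in each of 10 classes of mean RPKM over the 8 day 9 libraries, from class 1 (lowest) to class 10 (highest), with 1252 or 1253 transcripts in a class. The blue bars peak at 5.75% in class 2 and reach 0.559% in class 10, while the red bars stay between 0.160 and 1.04%.

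As the bars of calls by level show, falls outnumbered rises in the first 9 classes, while in the highest class 7 transcripts fell and 13 rose. Still, 14 of the 420 that fell had a control mean above 100 RPKM. Calls also varied with transcript length. In 5 classes of length, 4.15 to 4.47% of the 2 shortest classes (up to 989 bases) and 1.52% of the longest (from 2160 bases) were called lower, and rises took 1.40% of the shortest and 0.0798% of the longest. With the trend of each library against length removed, 495 transcripts were called lower and 175 higher, and 405 of the 420 and 76 of the 83 were among them.

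Part of the calls in both directions depended on single day 9 libraries. In every fit without 1 of the 8 day 9 libraries, 252 of the 420 falls and 21 of the 83 rises (25.3%) were called again. For changes of at least 2-fold, these were 192 of 249 and 7 of 19.

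To see how the day 9 calls stood in separate libraries, their levels were taken from the day 12 X1 groups (4 *mll1/2*(RNAi) and 4 *unc22*(RNAi) libraries). The median log2(RPKM + 0.5) of the 420 transcripts that fell was 2.58 to 2.78 in the day 9 controls and 2.58 to 2.77 in the day 12 controls. In the knockdown libraries it was 1.35 to 1.51 at day 9 and 1.17 to 1.25 at day 12. These ranges are narrow beside the gap between knockdown and control, and the day 12 knockdown libraries all lay below those of day 9.

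**Figure D4:**
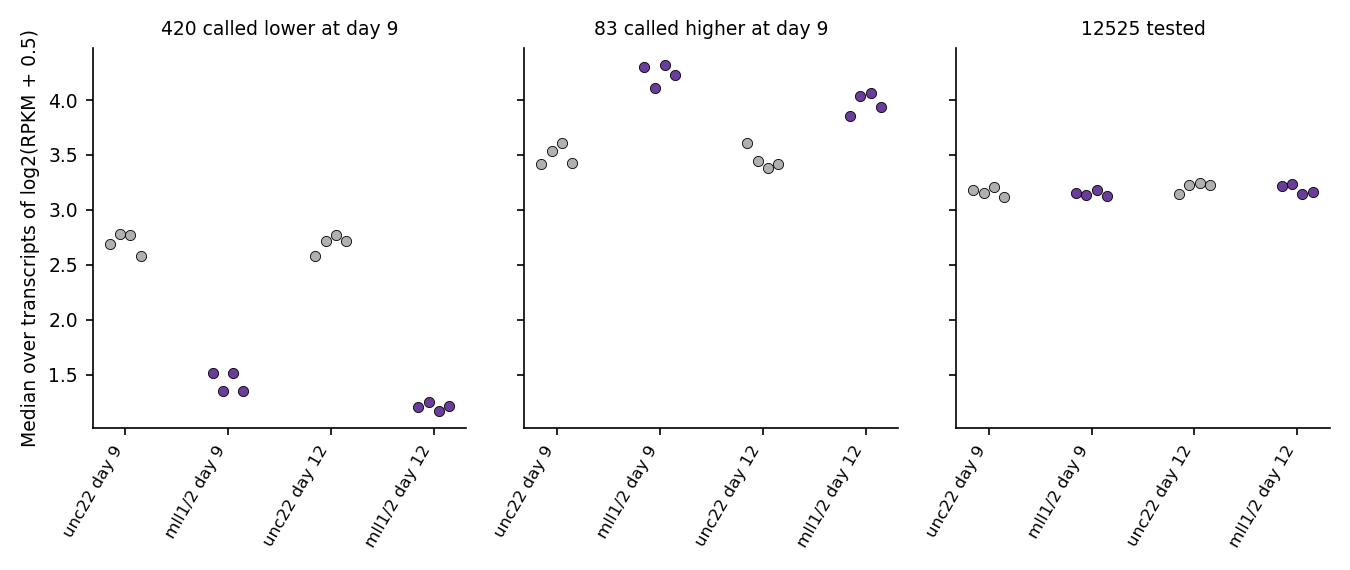
Median of log2(RPKM + 0.5) over the 420 transcripts called lower at day 9, the 83 called higher and all 12525 tested, with 1 point for each of the 16 X1 libraries (grey, *unc22*(RNAi); purple, *mll1/2*(RNAi)). The left panel shows day 12 knockdown libraries at 1.17 to 1.25 and day 12 controls at 2.58 to 2.77, while the right panel stays between 3.12 and 3.25.

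At day 12, 381 of the 420 (90.7%) were called lower and none was called higher, against 15.1% of all transcripts called lower and 13.2% called higher at that day. The 381 were 20.1% of the 1896 transcripts called lower at day 12. The median log2 fold change at day 12 was -1.34 over the 420 and -0.13 over all transcripts. The groups did not overlap at day 12 in the lower direction for 367 of the 420, against 13.6% of all transcripts. For 314, all 8 knockdown libraries of both days lay below all 8 controls, against 3.14% of all transcripts. The day 9 part of this last count comes from the libraries that gave the calls. It is a description, and only the day 12 part is separate. With *unc22*(RNAi) replicate 1 as the only day 12 control, 276 of the 420 were called lower and none higher, against 3.94% and 6.40% of all transcripts. That lone library was assumed to vary like the libraries of the other groups. Without that replicate 382 were called lower and 1 higher, against 29.97% and 18.2% of all transcripts.

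The rises recurred in part. At day 12, 24 of the 83 (28.9%) were called higher and 3 (3.61%) lower, against 13.2% and 15.1% of all transcripts, and the median log2 fold change of the 83 was 0.23. These 24 were 1.45% of the 1659 transcripts called higher at that day. The median level of the 83 was 4.11 to 4.32 in the day 9 knockdown libraries, 3.86 to 4.07 in those of day 12 and 3.38 to 3.61 in the controls of both days, on the log2(RPKM + 0.5) scale. With *unc22*(RNAi) replicate 1 as the only day 12 control, the median log2 fold change of the 83 was 0.25, against 0.03 over all transcripts. Without that replicate 26 of the 83 (31.3%) were called higher and 8 (9.64%) lower, against 18.2% and 29.97% of all transcripts.

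**Figure D5:**
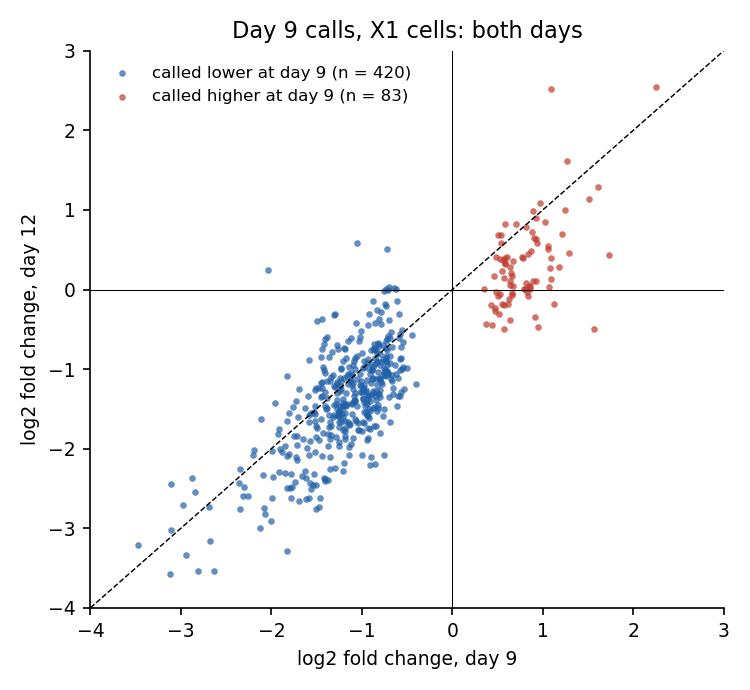
log2 fold change at day 9 (horizontal) and day 12 (vertical) of the transcripts called lower (blue, 420) and higher (red, 83) at day 9 in X1 cells, with equal change on the dashed line. Of the blue points 413 lie below 0 at day 12, and 60 of the red points lie above 0. Over all 12525 transcripts tested, 6808 had the same sign on both days.

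The scatter of day 9 against day 12 places most falls near or below the line of equal change, with 291 of the 420 larger at day 12, and most rises below it, with 10 of the 83 larger. A test of the difference between days (limma interaction) called 46 of the 503, which were 26 of the 420 falls (6.19%) and 20 of the 83 rises (24.1%), against 6.29% of all transcripts. The share among the falls was thus at the background. Of the 26, 23 were lower still at day 12. Their median log2 fold change was -0.90 at day 9 and -1.82 at day 12. Of the 20, 19 were less high at day 12. Their median went from 0.62 to -0.21. The day 9 values that chose the 503 also enter the comparison of days. Part of a smaller change at day 12 can therefore come from that choice.

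That count of 46 rested on single libraries. Without day 9 *unc22*(RNAi) replicates 1, 2, 3 and 4 in turn it was 5, 18, 72 and 7, and without day 9 *mll1/2*(RNAi) replicates 1 and 3 it was 16 and 24. Without day 12 *unc22*(RNAi) replicates 1, 2 and 4 it was 233, 27 and 9, and without day 12 *mll1/2*(RNAi) replicates 1, 3 and 4 it was 25, 12 and 18. It was 0 in the fit that dropped day 12 control replicates 2, 3 and 4 together, a fit in which 1 control library stands for that group.

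Whole worms of the same experiment, sampled at day 9 with 4 libraries in each group, showed some of the falls of X1 cells. Of the 420 transcripts, 348 were tested there, of which 54 (15.5%) were called lower and 37 (10.6%) higher. Over the 11416 transcripts tested in both tables, 3.81% were called lower and 3.21% higher, so both shares were above the background. The 54 were 12.4% of all 435 calls in the lower direction. The median log2 fold change of the 348 in whole worms was -0.04, against 0.02 over all. Without *unc22*(RNAi) replicate 2 of the X1 day 9 group, 44 day 9 calls, in place of 67, had a whole-worm call of the same sign.

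Control levels of these transcripts are given as a description. They were ranked within each tissue over the 11416 transcripts, since the 2 tables may not share 1 normalisation. The 37 that fell in X1 cells and rose in whole worms had a median percentile of 30.1 in control X1 cells and 59.6 in control whole worms, and 29 of them (78.4%) ranked higher in whole worms. The 54 that fell in both had medians of 30.9 and 40.2, and 28 (51.9%) ranked higher in whole worms. The background over all 11416 was 45.3%. At day 12 in whole worms, 4 of the 37 were called higher and none lower, and 32 of the 54 were called lower and none higher, where 3.48% of all transcripts were called lower and 1.57% higher.

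The rises of X1 cells went the same way in whole worms of day 9 where they were called. Of the 83, 72 were tested there and 13 (18.1%) were called higher and none lower, against 3.21% and 3.81% of all 11416. They were 3.54% of the 367 transcripts called higher. SMED30005487 was among them, at 2.79 ± 0.749 RPKM in *mll1/2*(RNAi) and 0.486 ± 0.221 RPKM in *unc22*(RNAi) whole worms (SD, n = 4 each), with a log2 change of 1.74 (SE 0.23, adjusted p = 0.000837 by limma). In whole worms of day 12, 7 of the 72 (9.72%) were called higher and 1 (1.39%) lower, against 1.57% and 3.48% of all transcripts.

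The other named transcripts differed in whole worms. SMED30029473 was also lower there, at 0.683 ± 0.185 against 2.59 ± 0.101 RPKM (SD, n = 4 each; log2 fold change -1.40, SE 0.21, limma adjusted p = 0.00138). SMED30030128, which rose in X1 cells, was at 81.3 ± 11.6 RPKM in *mll1/2*(RNAi) and 107 ± 13.05 in *unc22*(RNAi) whole worms, and was not called (log2 fold change -0.40, SE 0.17, limma adjusted p = 0.169). SMED30025108 had means of 0.158 and 0.352 RPKM and was below the level needed for a test.

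The X1 cells of the *set1* experiment at day 9, with 4 *set1*(RNAi) libraries and 4 *unc22*(RNAi) libraries of their own, offered a comparison with knockdown of the other enzyme. Of the 415 falls tested there, 207 (49.9%) were called lower and 24 (5.78%) higher, against 23.8% and 16.8% of the 12231 transcripts tested in both tables. The 207 were 7.11% of the 2910 calls in the lower direction. The median log2 fold change of the 415 after *set1*(RNAi) was -0.42, against -0.02 over all. For the 184 called in neither direction, the median was -0.05. Choosing transcripts that were not called favours a small value, so this median is a description only. The 207 had a median day 9 log2 fold change of -1.08 after *mll1/2*(RNAi) and the 184 one of -1.18.

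The rises were called in both directions. Of the 76 tested after *set1*(RNAi), 24 were called higher and 26 lower. These shares, 31.6% and 34.2%, stood beside a background of 16.8% and 23.8%.

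SMED30025108 was at 3.26 ± 0.977 RPKM in *set1*(RNAi) and 12.2 ± 2.34 in *unc22*(RNAi) (SD, n = 4 each; log2 fold change -1.79, SE 0.25, limma adjusted p = 2.37e-05). SMED30029473 was at 4.88 ± 1.25 against 21.8 ± 1.83 RPKM (log2 fold change -2.07, SE 0.16, limma adjusted p = 2.84e-08). Both of the named falls were therefore also falls after *set1*(RNAi). SMED30030128 was lower, at 25.9 ± 1.86 against 37.0 ± 3.89 RPKM (log2 fold change -0.50, SE 0.09, limma adjusted p = 0.000341), opposite to its rise after *mll1/2*(RNAi). SMED30005487 was at 1.86 ± 0.753 against 1.64 ± 0.744 RPKM and was not called (log2 fold change 0.14, SE 0.32, limma adjusted p = 0.775).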

How the data were processed

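PolyA RNA of sorted X1 cells was sequenced from Illumina TruSeq libraries. The authors deposited RPKM values, 1 table per experiment and tissue. The submitters' processing notes name CASAVA 1.8.2, Bowtie and edgeR, with no role given. The sources used here state neither the transcript set nor the counting method. Reads shared by near-identical transcripts are uncertain. Groups came from the labels, and in the *set1* X1 table columns show the group but not the sample.

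IDs averaging 1 RPKM or more over the 16 libraries of a table were tested. A linear model of log2(RPKM + 0.5) was fitted in limma (version 3.58.1, under R 4.3.3), with 1 mean per group and a trend of variance on abundance. Fold changes on this scale understate changes of low transcripts. Tests were two-sided, run within each table, and adjusted by Benjamini-Hochberg over all IDs tested. A call is an adjusted p below 0.05. Days 9 and 12 share the estimate of spread but no libraries. Levels and ranks were tabulated with Python 3.11.15, pandas 2.3.3 and numpy 2.4.6.

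Read counts and transcript lengths were recovered from the steps in the RPKM values, since each value times a length is a whole number of reads. All nonzero values came within 0.0002 reads of a whole number. They served for depth, lengths and an alternative test. The implied library size over the reads listed was 0.872 to 1.02 in the day 9 libraries. The deposited values thus include a scaling factor for each library. In day 12 *unc22*(RNAi) replicates 2, 3 and 4, which stood apart, this ratio was 0.763, 0.704 and 0.760, lower than in any other of the 16 libraries. Its part in their position was not tested. Replicates differed by more than sampling noise (chi-square per degree of freedom 7.73 to 22.6 in all pairs), and none was a duplicate.

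Named transcripts are the 2 largest falls and 2 largest rises among calls whose day 9 groups do not overlap. The comparison, lists and alternatives were chosen with earlier results of these data known. Alternatives were other pseudocounts, filters and normalisations, library weights, a replicate block, voom on the recovered reads, removal of the length trend and leaving out libraries. Leaving out the 3 day 12 controls that stood apart, or any day 12 library for the day 9 counts and the named transcripts, was chosen after seeing the data.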

Additional observations from a re-analysis of the deposited data

Results flagged for a closer look

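In the day 12 *mll1/2*(RNAi) X1 group, SMED30029473 was at 0.865 RPKM in replicate 4, while the other 3 libraries lay between 1.77 and 1.91 RPKM. The gap was 0.867 of the group's range, above Dixon's 95% critical value for 4 samples. This was the single such library among 16 groups examined for the 4 named transcripts, and chance alone gives about 1 in 20 groups. All 4 values remained below every control.

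By the limma interaction, the effect of *mll1/2*(RNAi) differed between days 9 and 12 for 46 of the 503 transcripts called at day 9. These were 26 of the 420 falls (6.19%) and 20 of the 83 rises (24.1%), against 6.29% of all transcripts tested. The share among the falls was thus at the background. The difference was not called for any of the 4 named transcripts. Without the 3 day 12 controls that stood apart, it was called for 0 of the day 9 calls of that fit.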

How the results depend on the processing

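All 4 named transcripts kept their direction and stayed called under every alternative in which they were tested. Leaving out single day 9 or day 12 libraries gave log2 fold changes of -3.62 to -3.36 for SMED30025108, -3.37 to -2.83 for SMED30029473, 2.11 to 2.39 for SMED30005487 and 1.56 to 1.69 for SMED30030128. The other alternatives gave -4.50 to -2.85, -3.42 to -2.85, 1.97 to 2.60 and 1.52 to 1.68. The 503 calls became 202 (42 higher, 160 lower) with a minimum mean of 5 RPKM, where 7826 transcripts were tested. They became 1217 (559 higher, 658 lower) with libraries weighted, where lower calls were 54.1% in place of 83.5%. The cause was not tested. Other settings gave 387 to 700 calls, 437 with voom on recovered reads. Leaving out single libraries gave 316 to 705 calls and 216 to 280 changed at least 2-fold, where the 5 RPKM minimum gave 82. With that minimum the groups did not overlap for 760 of the 7826 transcripts. Of its 202 calls, 169 were shared with day 12, 20 with whole worms and 105 with *set1*(RNAi). The shares of all transcripts called in those comparisons are not given for that minimum, so these counts are a description. Leaving out single libraries gave 1621 to 2606 without overlap, since fewer libraries overlap less, 283 to 495 shared with day 12, 44 to 56 with whole worms and 155 to 195 with *set1*(RNAi). Effects that differed between days numbered 5 to 233 when single libraries were left out and 0 without the 3 day 12 controls.

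Same-numbered replicates were not shown to be paired, since correlations of their deviations were 0.01, 0.07, 0.02 and 0.24, and 2 of the 4 libraries of each group correlated best with their own number. With the replicate block there were 387 calls (42 higher, 345 lower), and 25 effects differed between days in place of 46.

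Depth limits the low transcripts. Without the filter on level, 156 IDs below 1 RPKM were called lower and 20 higher, and these are not described. The floor of 3 reads covers counting error only, while the SEs come from the spread between libraries.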
